A study of Oryza sativa with 6 samples.

Results

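The heat shock proteins and heat shock transcription factors of rice leaves were compared between a tetraploid line and the diploid it was made from. They were taken as a list of 51 locus identifiers with a class for each, namely HSP101, 18 small heat shock proteins, 7 members of the HSP90 family, 9 of the HSP70 family and 16 heat shock factors. A row was found for 50 of them among the 55986 gene models of the count table. LOC_Os09g30439, listed with the HSP90 family, was not analysed here. Balilla-4x is an artificial tetraploid rice (Oryza sativa, japonica, 2n = 48) obtained by chromosome doubling of Balilla-2x, an Italian diploid variety (2n = 24). Both lines were raised outdoors in Shanghai paddies under conditions labelled normal, leaves were taken at 4 weeks of age, and 3 RNA-seq libraries were made per line. The tetraploid is represented by 1 line, and whether the 3 libraries of a line came from separate plants is not given, so p-values reflect only how much these libraries differ, which may be technical.

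Heat shock proteins are molecular chaperones that keep other proteins folded. Small heat shock proteins hold unfolding proteins in a soluble state, the HSP70 and HSP90 families refold or mature client proteins with the use of ATP, and HSP101 pulls proteins out of aggregates. In plants many of these genes are nearly silent in unstressed leaves and are switched on by heat through heat shock factors, which bind DNA upstream of them, while other HSP70 and HSP90 genes are expressed at all times. The files give no gene names, so each locus is called by its identifier and its class, and the compartment of a chaperone or the subclass of a factor is not stated.

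The Balilla-4x libraries held 16738447 to 17078688 counts and the Balilla-2x libraries 17147985 to 18106962. Pairs of libraries of a line differed by more than sampling noise, with a chi-square of 8.37 to 28.5 per degree of freedom. Balilla-4x replicate 1 lay farthest from the other libraries of its line, at 24.1 and 28.5, against 8.37 between Balilla-4x replicates 2 and 3. The leaf identity of the libraries was not checked against marker genes.

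In the tetraploid, HSP101, 2 small heat shock proteins, 1 HSP90 gene and 3 heat shock factors were higher than in the diploid, and 1 small heat shock protein, 2 HSP70 genes and 3 heat shock factors were lower. These 13 genes were among 37 that had enough counts for the test (edgeR quasi-likelihood test, adjusted p under 0.05 over all tested genes). Of all 20976 tested genes, 26.1% passed the same threshold, 12.4% higher and 13.7% lower in Balilla-4x. A change of at least 2-fold was found in 6 of the 37, 4 higher and 2 lower, beside 11.7% of all tested genes, 6.55% higher and 5.18% lower. Of the 4 higher genes, HSP101, LOC_Os07g08140 and LOC_Os01g43590 reached the filter on low counts only with their Balilla-4x libraries, where they were high. The median log2 fold change of Balilla-4x over Balilla-2x was 0.04 over the 37 and 0.01 over all tested genes, and the median size regardless of sign was 0.35 over the 37 and 0.31 over all. The 3 Balilla-4x libraries lay all above or all below the 3 Balilla-2x libraries in 16 of the 37 heat shock genes, 8 in each direction, beside 44.3% of all tested genes, 21.6% higher and 22.6% lower. In whole leaves, fewer cells of a type and less RNA per cell cannot be told apart.

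**Figure D1:**
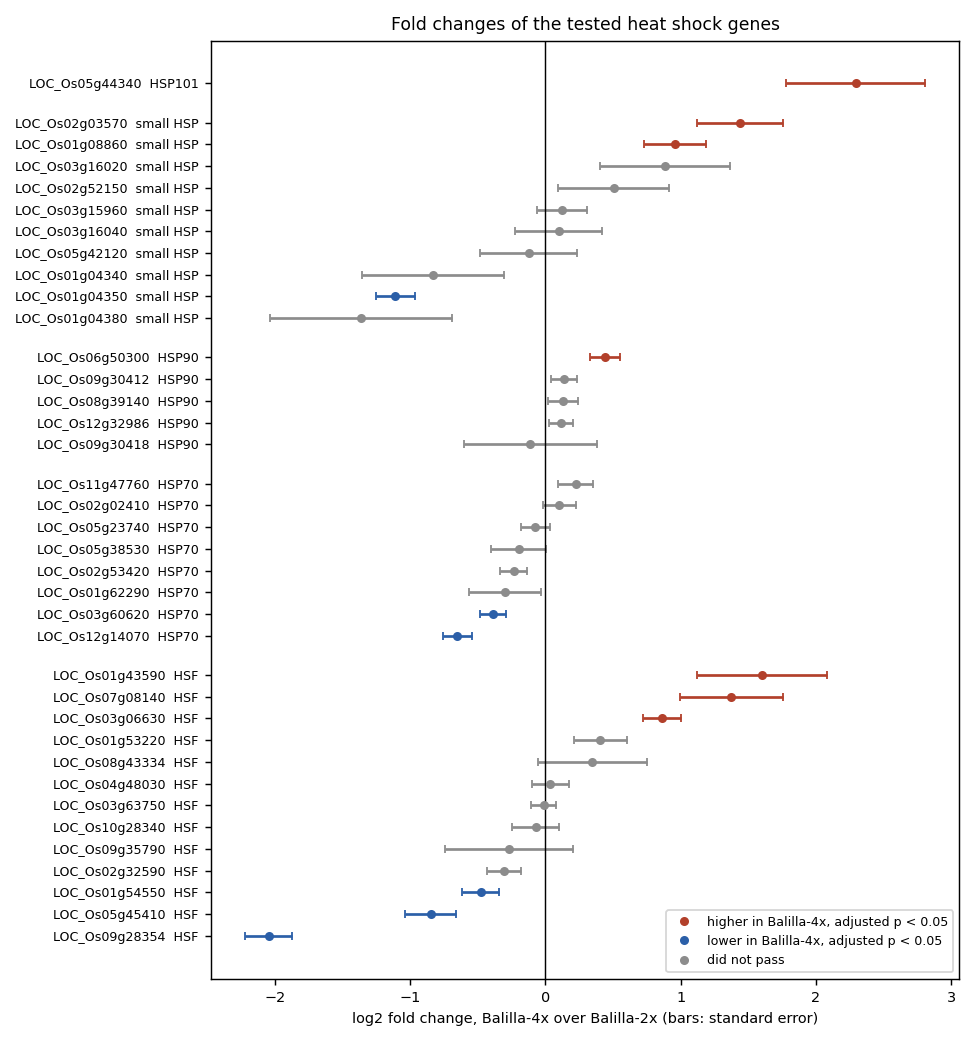
Log2 fold change of Balilla-4x over Balilla-2x (x axis) with its standard error for each of the 37 tested heat shock genes (y axis), grouped by class. Red and blue points passed an adjusted p of 0.05 and grey points did not, and both colours occur among the small heat shock proteins and the heat shock factors.

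The count of changed genes fell when some single libraries were left out, and so did the share of all tested genes that passed. Of the heat shock genes, 7 passed without either Balilla-4x replicate 2 or Balilla-2x replicate 3 and 8 without Balilla-4x replicate 3. Of all tested genes, 14.2%, 15.2% and 15.4% passed in that order, against 26.1% with all libraries. The split, 7 higher and 6 lower as reported, was 3 higher and 7 lower without Balilla-2x replicate 1, when 19.9% of all tested genes passed. It was 3 higher and 4 lower without Balilla-2x replicate 3. The count of genes changed at least 2-fold was 3 without Balilla-2x replicate 3, beside 8.63% of all tested genes. With Balilla-4x replicate 1 left out the count was again 6, beside 13.7% of all tested genes. Of these 6 genes, 2 were higher and 4 lower, and 4 were among the 6 reported.

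**Figure D2:**
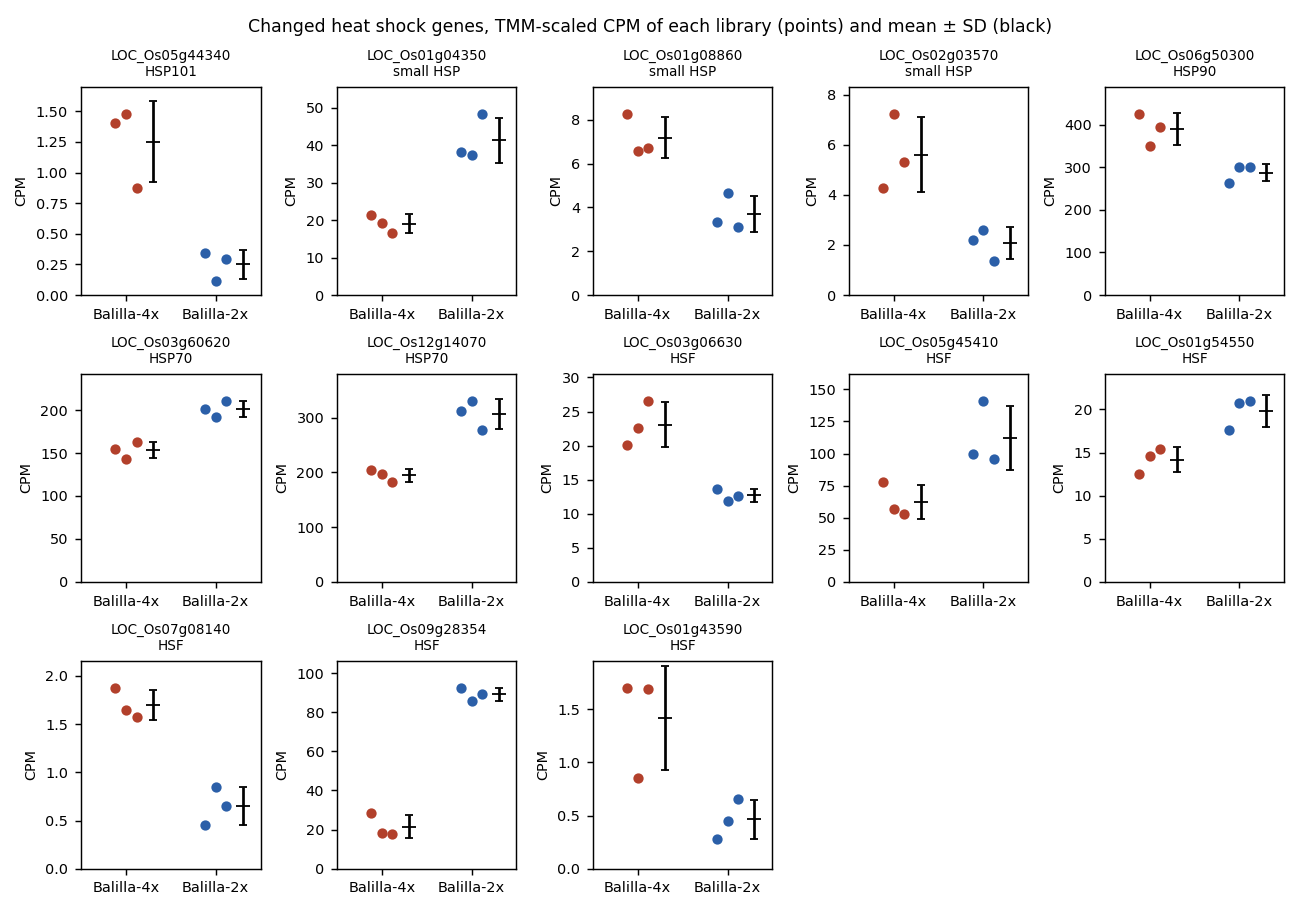
CPM, scaled by TMM, of each of the 13 changed heat shock genes in every library (points), Balilla-4x on the left and Balilla-2x on the right, with the mean and SD of the 3 libraries in black. The points of the lines do not overlap in any of the 13 panels, whose genes were picked by adjusted p from these same libraries, so this is no separate support.

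Compared per length, as FPKM averaged over the 6 libraries, the classes stood at different levels in these leaves. The HSP70 family had the highest median, 68.9 FPKM over 9 genes, and 3 of its genes reached at least 100 FPKM. The HSP90 family had a median of 13.04 FPKM over 6 genes and the heat shock factors 7.71 FPKM over 16. HSP101 stood at 0.234 FPKM. Small heat shock proteins were mostly scarce too, with a median of 0.814 FPKM over 18 genes, of which 9 lay between 0 and 1 FPKM and 1 had no count. The genes that were higher in the tetraploid were mostly of low level and those that were lower mostly of higher level. Of the 7 higher genes 5 had a mean under 10 FPKM, and of the 6 lower genes 1 had. Among the 24 tested genes that did not pass, 14 were under 10 FPKM. Over all tested genes, 60.6% of the higher, 33.1% of the lower and 53.1% of the other genes were under 10 FPKM, so this order was also that of the whole transcriptome.

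**Figure D3:**
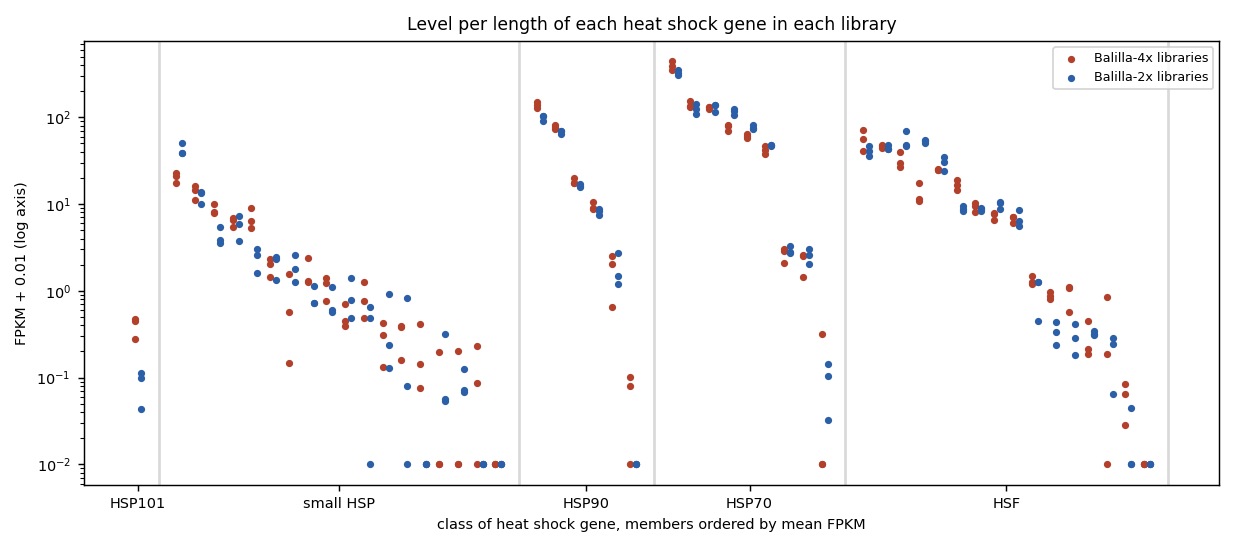
FPKM plus 0.01 on a log axis for each of the 50 heat shock genes in each library, Balilla-4x in red and Balilla-2x in blue, with the genes of a class ordered by mean FPKM. HSP70 genes reach the highest levels, with a median of 68.9 FPKM, while HSP101 and most small heat shock proteins lie under 10 FPKM.

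HSP101, the disaggregase of the list (LOC_Os05g44340, chromosome 5), was higher in the tetraploid at a very low level. It was read 24, 26 and 15 times in the Balilla-4x libraries, against 6, 2 and 5 times in the Balilla-2x libraries. These counts are 1.41, 1.48 and 0.876 CPM in Balilla-4x, against 0.341, 0.113 and 0.297 CPM in Balilla-2x, with CPM taken as the count scaled to the TMM-adjusted library total. The lowest tetraploid library was above the highest diploid one. HSP101 passed the filter on low counts through Balilla-4x alone, since no Balilla-2x library reached the filter's minimum of 0.584 CPM (before TMM scaling), so it could be tested only because it was higher there. The difference was 4.91-fold (log2 2.30 ± 0.51 SE, n = 3 each, edgeR adjusted p = 0.0130). Without Balilla-4x replicate 2 the log2 value was 2.18 and the edgeR adjusted p 0.0553.

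Among the small heat shock proteins, 10 of 18 could be tested, of which 2 rose and 1 fell, and the other 7 did not pass. Over all tested genes, 26.1% passed. The median log2 fold change of the 10 was 0.11. The most abundant gene of the class fell, while 2 genes with means of 6.47 and 4.64 FPKM rose.

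LOC_Os01g04350 on chromosome 1, the small heat shock protein with the highest level, was lower in the tetraploid. Its level was 21.5, 19.2 and 16.5 CPM in the Balilla-4x libraries, against 38.1, 37.3 and 48.3 CPM in the Balilla-2x libraries. All tetraploid libraries lay well under all diploid ones. Its log2 fold change was -1.11 ± 0.14 (SE, n = 3 each, edgeR adjusted p = 0.00118), and the call held with each library left out. Per length it stood at 20.5 ± 2.82 FPKM in Balilla-4x, against 42.4 ± 6.49 FPKM in Balilla-2x (SD, n = 3 each).

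That gene lies in a row of 5 small heat shock protein loci with neighbouring locus numbers, LOC_Os01g04340 to LOC_Os01g04380. Neighbouring copies can share reads, and how the authors' counting assigned these is not given, so the counts of the row were also summed. The sum was 24.4, 21.04 and 17.8 CPM in Balilla-4x, against 41.4, 39.6 and 51.7 CPM in Balilla-2x. It was lower in the tetraploid, at a log2 fold change of -1.07 ± 0.15 (SE, n = 3 each, edgeR adjusted p = 0.00176). LOC_Os01g04350 held 87.8% to 93.1% of the row's counts in the Balilla-4x libraries and 92.04% to 94.3% in the Balilla-2x libraries, so the sum mostly repeats that gene. The other 4 loci had between 0 and 39 counts in a library. Of these, LOC_Os01g04340 had a log2 fold change of -0.83 (95% interval -2.03 to 0.37, edgeR adjusted p = 0.277) and LOC_Os01g04380 one of -1.36 (95% interval -2.89 to 0.17, edgeR adjusted p = 0.168). LOC_Os01g04360 and LOC_Os01g04370 had too few counts for the test. Without Balilla-4x replicate 1, LOC_Os01g04380 passed as lower, at log2 -2.46 (edgeR adjusted p = 0.0239). The Balilla-4x libraries left in that run had 8 and 2 counts, under the filter's minimum. The gene was thus tested there only through Balilla-2x, where it was high.

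LOC_Os02g03570 on chromosome 2 was the small heat shock protein with the largest rise among those that passed. It stood at 4.28, 7.22 and 5.31 CPM in Balilla-4x, against 2.21, 2.60 and 1.36 CPM in Balilla-2x. The lines did not overlap, and the difference was 2.71-fold (log2 1.44 ± 0.32 SE, n = 3 each, edgeR adjusted p = 0.0129). Without Balilla-4x replicate 2 it was log2 1.23 with an edgeR adjusted p of 0.0585.

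LOC_Os01g08860 on chromosome 1, the other small heat shock protein that rose, had 8.27, 6.60 and 6.71 CPM in Balilla-4x, against 3.35, 4.64 and 3.08 CPM in Balilla-2x. All tetraploid libraries were above the diploid ones, and the log2 fold change was 0.96 ± 0.23 (SE, n = 3 each, edgeR adjusted p = 0.0173). The edgeR adjusted p was 0.0522 and 0.0633 without Balilla-2x replicates 1 and 3.

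A second row of small heat shock proteins lies on chromosome 3, with LOC_Os03g15960 and the loci LOC_Os03g16020 to LOC_Os03g16040. Its summed counts did not pass the test. The sum was 15.3, 18.4 and 20.8 CPM in Balilla-4x, against 15.5, 16.8 and 17.7 CPM in Balilla-2x, and the ranges overlapped. The log2 fold change of the sum was 0.13 (95% interval -0.20 to 0.45, edgeR adjusted p = 0.543). LOC_Os03g15960 held most of these counts, 74.0% to 80.6% in the Balilla-4x libraries and 68.5% to 85.8% in the Balilla-2x libraries, and had a log2 fold change of 0.12 (95% interval -0.30 to 0.55). LOC_Os03g16040 had the smallest change of the class. It was read at 3.28, 2.50 and 3.15 CPM in Balilla-4x, against 3.63, 1.81 and 2.91 CPM in Balilla-2x (log2 0.10 ± 0.32 SE, n = 3 each, edgeR adjusted p = 0.847). LOC_Os03g16020 was above all diploid libraries in each tetraploid one, but with only 10 to 19 counts in Balilla-4x, against 6 to 9 in Balilla-2x, and it too passed the filter through Balilla-4x alone (log2 0.88, 95% interval -0.22 to 1.99, edgeR adjusted p = 0.210). The remaining tested genes of the class, LOC_Os02g52150 and LOC_Os05g42120, had log2 fold changes of 0.50 (95% interval -0.43 to 1.44) and -0.13 (95% interval -0.94 to 0.69).

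In the HSP90 family 1 of 5 tested genes rose and 0 fell in the edgeR test, beside 26.1% of all tested genes that passed. No other gene of the family had an unadjusted edgeR p under 0.05, whereas 8222 of all 20976 tested genes were under it. DESeq2, run without a filter on low counts, called the same gene alone in this family, beside 19.2% of all genes it tested. LOC_Os06g50300 on chromosome 6, the most abundant gene of the family, had 425, 351 and 395 CPM in Balilla-4x, against 263, 299 and 300 CPM in Balilla-2x. All tetraploid libraries were higher, and the difference was 1.36-fold (log2 0.44 ± 0.11 SE, n = 3 each, edgeR adjusted p = 0.0222). The call was close to the threshold. The edgeR adjusted p was 0.0697 without Balilla-4x replicate 3, and 0.0786, 0.0526 and 0.0560 without Balilla-2x replicates 1, 2 and 3.

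The other 4 tested HSP90 genes did not pass. LOC_Os09g30412 had 212, 183 and 200 CPM in Balilla-4x, against 186, 173 and 183 CPM in Balilla-2x (log2 0.14, 95% interval -0.08 to 0.36, edgeR adjusted p = 0.330). It lies next to LOC_Os09g30418 on chromosome 9, and the summed counts of both gave a log2 fold change of 0.13 (95% interval -0.10 to 0.36, edgeR adjusted p = 0.368). LOC_Os12g32986 had the smallest change of the family, with 51.1, 56.3 and 51.1 CPM in Balilla-4x, against 47.4, 48.2 and 51.2 CPM in Balilla-2x (log2 0.11 ± 0.09 SE, n = 3 each, edgeR adjusted p = 0.386). For LOC_Os08g39140 the log2 fold change was 0.13 (95% interval -0.13 to 0.38). The intervals of these 3 genes reach no further than 0.38 on the log2 scale, whereas that of LOC_Os09g30418, a scarce gene with 27 to 122 counts, ran from -1.23 to 1.01.

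In the HSP70 family 2 of 8 tested genes fell and 0 rose in the edgeR test. Of all tested genes 26.1% passed, so the 25% of this family was near that share. An unadjusted edgeR p under 0.05 was found in 3 of the 8, all lower, beside 8222 of all 20976 tested genes. DESeq2, run without a filter on low counts, called the same 2 genes of the family, beside 19.2% of all genes it tested. LOC_Os12g14070 on chromosome 12 showed the larger fall. It was read at 205, 198 and 182 CPM in the Balilla-4x libraries and at 312, 331 and 278 CPM in the Balilla-2x libraries. The lines were far apart relative to their spread, at log2 -0.65 ± 0.11 (SE, n = 3 each, edgeR adjusted p = 0.00345), and the call held with each library left out.

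LOC_Os03g60620 on chromosome 3 had 154, 144 and 163 CPM in Balilla-4x, against 201, 192 and 211 CPM in Balilla-2x. Every tetraploid library was lower, by a modest amount (log2 -0.39 ± 0.10 SE, n = 3 each, edgeR adjusted p = 0.0190). The edgeR adjusted p was 0.0901 without Balilla-4x replicate 2 and 0.0673 without Balilla-2x replicate 3. LOC_Os02g53420 also lay lower in each tetraploid library, with 105, 115 and 95.04 CPM in Balilla-4x, against 124, 123 and 124 CPM in Balilla-2x, but did not pass (log2 -0.24, 95% interval -0.46 to -0.01, edgeR adjusted p = 0.108).

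The HSP70 gene with the highest level did not pass the test. LOC_Os11g47760 on chromosome 11 had 1056, 813 and 935 CPM in Balilla-4x, against 860, 750 and 792 CPM in Balilla-2x. Balilla-4x replicate 2 lay within the diploid range, and the log2 fold change was 0.22 (95% interval -0.07 to 0.51, edgeR adjusted p = 0.229). Per length it was the most abundant gene of the list, at 395 ± 48.8 FPKM in Balilla-4x, against 325 ± 21.1 FPKM in Balilla-2x (SD, n = 3 each). LOC_Os05g23740 had the smallest change of the family, with 326, 316 and 309 CPM in Balilla-4x, against 353, 353 and 296 CPM in Balilla-2x (log2 -0.08 ± 0.11 SE, n = 3 each, edgeR adjusted p = 0.630). For LOC_Os02g02410, another gene of at least 100 FPKM, the log2 fold change was 0.10 (95% interval -0.18 to 0.38). The scarcer LOC_Os01g62290 and LOC_Os05g38530 had log2 fold changes of -0.30 (95% interval -0.90 to 0.31) and -0.20 (95% interval -0.66 to 0.27).

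Among the heat shock factors, which bind the promoters of heat shock genes, 3 of 13 tested genes rose, 3 fell and 7 did not pass, beside the 26.1% of all tested genes that changed. At least 2-fold changes were found in 3 of the 13 tested factors (23.1%), beside 11.7% of all tested genes. Of these, LOC_Os07g08140 and LOC_Os01g43590 passed the count filter only with their Balilla-4x libraries. The classes were not compared with each other by a test. The median log2 fold change of the 13 was -0.01.

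LOC_Os09g28354 on chromosome 9 showed the largest fall of all heat shock genes tested. Its reads numbered 484, 322 and 307 in the Balilla-4x libraries, against 1629, 1512 and 1503 in the Balilla-2x libraries. In CPM these were 28.4, 18.3 and 17.9 in Balilla-4x, against 92.5, 85.6 and 89.1 in Balilla-2x. The diploid libraries were close together, and Balilla-4x replicate 1 was the highest of the tetraploid ones. The log2 fold change was -2.05 ± 0.17 (SE, n = 3 each, edgeR adjusted p = 0.000151), and diploid leaves had 4.14 times the tetraploid level. With each library left out in turn the log2 value ran from -2.30 to -1.93, and the call held each time.

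LOC_Os05g45410 on chromosome 5 also fell. It stood at 77.5, 56.6 and 52.8 CPM in Balilla-4x, against 99.3, 141 and 95.8 CPM in Balilla-2x. The lines did not overlap although each had 1 library above its other 2 (log2 -0.85 ± 0.19 SE, n = 3 each, edgeR adjusted p = 0.0128). The edgeR adjusted p was 0.0679 and 0.0551 without Balilla-4x replicates 2 and 3.

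LOC_Os01g54550 on chromosome 1, the third factor that fell, had 12.5, 14.6 and 15.5 CPM in Balilla-4x, against 17.7, 20.7 and 20.99 CPM in Balilla-2x. Its difference was small (log2 -0.48 ± 0.13 SE, n = 3 each, edgeR adjusted p = 0.0314). The edgeR adjusted p was 0.0588, 0.0894 and 0.0502 without Balilla-4x replicates 1, 2 and 3, 0.0853 and 0.0985 without Balilla-2x replicates 2 and 3, and 0.0510 with library totals in place of TMM. With limma on FPKM plus 1 or plus 0.1 the adjusted p was 0.0651 or 0.0626.

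LOC_Os03g06630 on chromosome 3 was the most abundant factor that rose. It had 20.1, 22.6 and 26.6 CPM in Balilla-4x, against 13.6, 11.8 and 12.6 CPM in Balilla-2x. Every tetraploid library exceeded every diploid one, by 1.82-fold on average (log2 0.86 ± 0.14 SE, n = 3 each, edgeR adjusted p = 0.00323), and the call held with each library left out.

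The other 2 factors that rose were scarce. LOC_Os07g08140 on chromosome 7 had 32, 29 and 27 counts in Balilla-4x, against 8, 15 and 11 counts in Balilla-2x (log2 1.37 ± 0.38 SE, n = 3 each, edgeR adjusted p = 0.0302). LOC_Os01g43590 on chromosome 1 had 29, 15 and 29 counts in Balilla-4x, against 5, 8 and 11 counts in Balilla-2x (log2 1.60 ± 0.48 SE, n = 3 each, edgeR adjusted p = 0.0398). The count filter needed 3 libraries at its minimum of 0.584 CPM (before TMM scaling). Only 2 Balilla-2x libraries of LOC_Os07g08140 and 1 of LOC_Os01g43590 reached it, so both genes could be tested only with their Balilla-4x libraries. The libraries of the lines did not overlap in either gene, but both calls were close to the threshold. For LOC_Os07g08140 the edgeR adjusted p was 0.0659, 0.0853 and 0.0784 without Balilla-4x replicates 1, 2 and 3, and 0.0938 and 0.0957 without Balilla-2x replicates 1 and 3. For LOC_Os01g43590 it was 0.0875 and 0.131 without Balilla-4x replicates 1 and 3, and 0.121, 0.107 and 0.0657 without Balilla-2x replicates 1, 2 and 3. Without a filter on low counts the edgeR adjusted p was 0.0535 for LOC_Os07g08140 and 0.0576 for LOC_Os01g43590, and DESeq2 gave LOC_Os01g43590 an adjusted p of 0.0504.

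The 2 factors with the highest FPKM averaged over the 6 libraries, LOC_Os01g53220 and LOC_Os03g63750, did not pass. In Balilla-2x alone they stood at 40.8 and 44.8 FPKM, under LOC_Os05g45410 at 54.9 FPKM and LOC_Os09g28354 at 52.6 FPKM, which both fell. LOC_Os01g53220 on chromosome 1 had 45.8, 62.8 and 81.9 CPM in Balilla-4x, against 48.1, 54.2 and 41.3 CPM in Balilla-2x, with a wide spread in the tetraploid (log2 0.41 ± 0.20 SE, n = 3 each, edgeR adjusted p = 0.163). Without Balilla-4x replicate 1 it passed as higher, at log2 0.59 (edgeR adjusted p = 0.0165). LOC_Os03g63750 on chromosome 3 had the smallest fitted change of the list. It had 106, 99.8 and 98.7 CPM in Balilla-4x, against 99.6, 110 and 97.6 CPM in Balilla-2x (log2 -0.01, 95% interval -0.22 to 0.19, edgeR adjusted p = 0.925). LOC_Os02g32590 lay lower in each tetraploid library, with 52.3, 53.7 and 52.7 CPM in Balilla-4x, against 53.8, 66.9 and 76.1 CPM in Balilla-2x, and did not pass (log2 -0.31, 95% interval -0.60 to -0.02, edgeR adjusted p = 0.106). It passed as lower without Balilla-2x replicate 1, at log2 -0.44 (edgeR adjusted p = 0.0247). The remaining factors tested were LOC_Os04g48030 with a log2 fold change of 0.04 (95% interval -0.27 to 0.34), LOC_Os10g28340 with -0.07 (-0.47 to 0.32), LOC_Os08g43334 with 0.35 (-0.56 to 1.26) and LOC_Os09g35790 with -0.27 (-1.35 to 0.81).

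The classes were also summed, with and without a named gene. That gene was the most abundant of its class, except for the heat shock factors, where it had the largest change. Leaving out a gene picked in this way can by itself shrink or turn a difference, so these sums do not show what set it. These sums are given as a description, with no test. The small heat shock proteins summed to 56.3, 57.4 and 55.4 CPM in Balilla-4x, against 66.6, 68.2 and 76.5 CPM in Balilla-2x, so the class sum was lower in each tetraploid library. Without LOC_Os01g04350 the order was the opposite, with 34.9, 38.2 and 38.9 CPM in Balilla-4x, against 28.6, 30.9 and 28.2 CPM in Balilla-2x. That gene made up 33.8% ± 4.14 of the class sum in Balilla-4x, against 58.4% ± 4.34 in Balilla-2x (SD, n = 3 each).

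The heat shock factors summed to 378 ± 10.6 CPM in Balilla-4x, against 486 ± 36.9 CPM in Balilla-2x (SD, n = 3 each). Without LOC_Os09g28354 they summed to 350, 348 and 370 CPM in Balilla-4x, against 363, 441 and 386 CPM in Balilla-2x, where the lines overlapped. The mean was then 356 CPM in Balilla-4x, against 397 CPM in Balilla-2x. A smaller gap was built in, because LOC_Os09g28354 was picked for its large fall. LOC_Os05g45410 and LOC_Os01g54550 also fell, so the gap was not that of LOC_Os09g28354 alone. The share of LOC_Os09g28354 in the sum was 5.70% ± 1.56 in Balilla-4x, against 18.4% ± 2.05 in Balilla-2x (SD, n = 3 each).

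The HSP90 family summed to 730, 624 and 684 CPM in Balilla-4x, against 535, 551 and 570 CPM in Balilla-2x, higher in each tetraploid library. Without LOC_Os06g50300 its sums were 305, 273 and 289 CPM in Balilla-4x, against 271, 252 and 270 CPM in Balilla-2x. Each tetraploid library was still higher, the lowest only just. The HSP70 family summed to 2058 ± 162 CPM in Balilla-4x, against 2098 ± 37.9 CPM in Balilla-2x (SD, n = 3 each), and the lines overlapped. Without LOC_Os11g47760 its sums were 1177, 1101 and 1094 CPM in Balilla-4x, against 1282, 1331 and 1280 CPM in Balilla-2x, lower in each tetraploid library. All 50 genes together took 3173 ± 218 CPM in Balilla-4x, against 3207 ± 17.96 CPM in Balilla-2x (SD, n = 3 each).

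**Figure D4:**
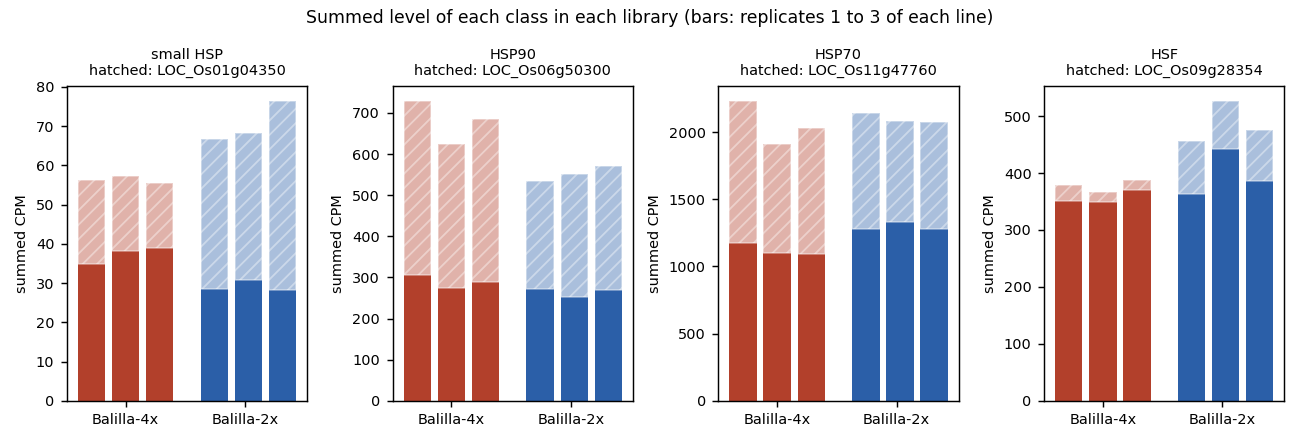
Summed CPM of 4 classes of heat shock genes (y axes) in each library, Balilla-4x in red on the left and Balilla-2x in blue on the right, with replicates 1 to 3 in order. The hatched part of each bar is 1 named gene, the most abundant of its class except for the heat shock factors, where it is the gene with the largest change, and without it the small heat shock proteins summed to 34.9 to 38.9 CPM in Balilla-4x, against 28.2 to 30.9 CPM in Balilla-2x.

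The 13 genes with a row that were not tested comprised 8 small heat shock proteins, 1 HSP90 gene, 1 HSP70 gene and 3 heat shock factors, with at most 18 counts in any library. The small heat shock protein LOC_Os11g13980 and the factor LOC_Os06g35960 had 0 counts in all 6 libraries, which allows up to 3 counts, or 0.166 to 0.179 CPM, in each. Reads of 3 others were found in the tetraploid only, in very small numbers. Over the whole count table, the Balilla-4x libraries also had more genes with a count, 26173 to 26542, against 25559 to 25574 in Balilla-2x. How many of all genes were read in the tetraploid only was not counted. The small heat shock protein LOC_Os02g54140 had 2, 6 and 1 counts in Balilla-4x and 0 in each Balilla-2x library. The small heat shock protein LOC_Os06g14240 had 1, 0 and 3 counts in Balilla-4x and the HSP90 gene LOC_Os04g01740 had 3, 4 and 0, again with 0 in each Balilla-2x library. A difference between the lines was not detectable at this depth for these genes.

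Each of the 13 changed genes kept its direction in all processing settings that gave it a value. The call held in every one of 14 settings for 4 of them, LOC_Os01g04350, LOC_Os12g14070, LOC_Os03g06630 and LOC_Os09g28354. These are 1 small heat shock protein, 1 HSP70 gene and 2 heat shock factors.

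**Figure D5:**
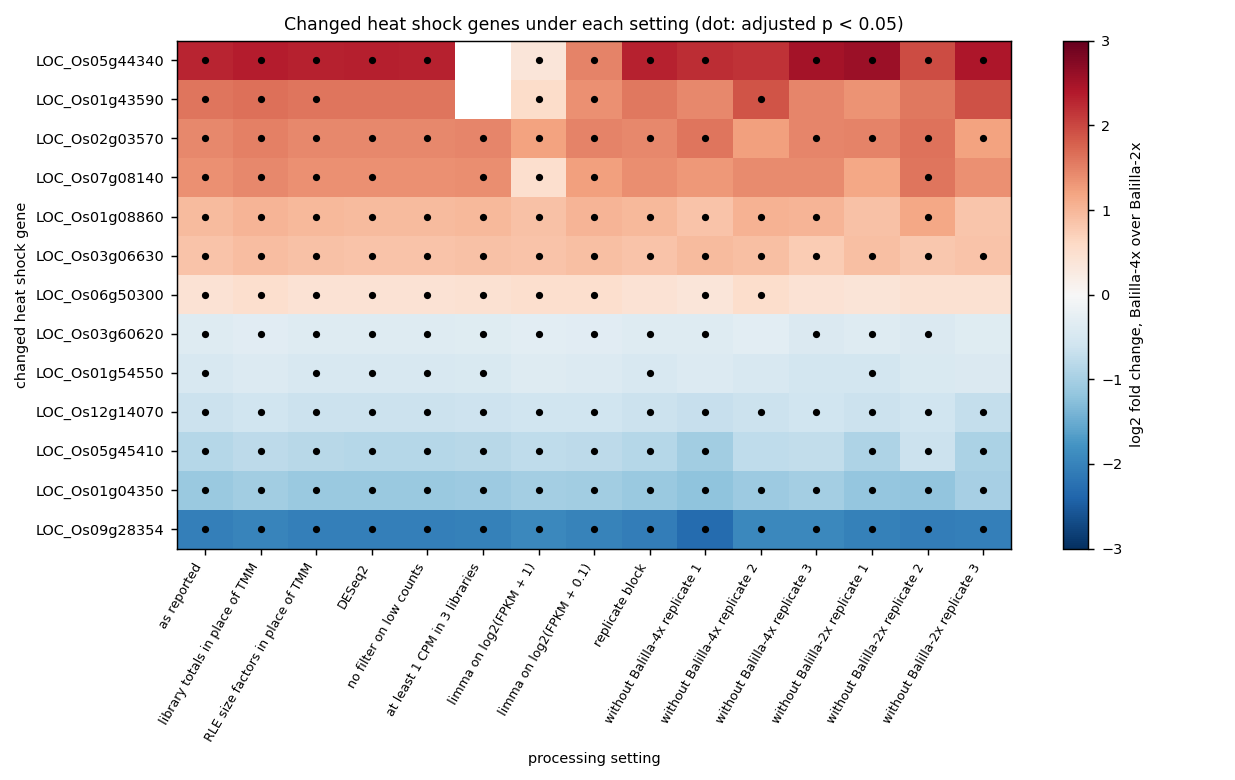
Log2 fold change of Balilla-4x over Balilla-2x (colour) of the 13 changed heat shock genes (rows) under each processing setting (columns), with a dot where the adjusted p was under 0.05 and white where the gene was removed by the filter. The 4 genes with a dot in every column are LOC_Os03g06630, LOC_Os12g14070, LOC_Os01g04350 and LOC_Os09g28354.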

How the data were processed

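RNA-seq of leaves was available for 3 Balilla-4x and 3 Balilla-2x libraries. The authors deposited raw read counts per gene for all libraries and FPKM values for each, per the file headers. The submitters' processing notes name HISAT2 2.1.0 for alignment, and total RNA was taken with Trizol and made into TruSeq libraries, per the labels' protocols. Not given in the sources used here are the counting program, genome build, annotation and strand setting, so reads of near-identical or overlapping genes may be split in unknown ways. The gene length implied by count, FPKM and library total was whole within 0.01 in 100% of nonzero values, so both tables hold the same measurement.

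None of the locus identifiers matched the RefSeq table of 39387 rice genes (0 matches), so no locus was named or given a sequence from it. The members, their classes and the lists were chosen with earlier results of these data known.

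The counts were tested with edgeR 4.0.16 in R 4.3.3 (filterByExpr, TMM, quasi-likelihood F test, two-sided, Benjamini-Hochberg adjustment over 20976 tested genes, threshold 0.05). The filter removes genes of low counts in most libraries. A gene read at a higher level in 1 line can pass through that line. In 2 of the 37 tested heat shock genes, HSP101 and LOC_Os03g16020, no library of the other line reached the minimum. LOC_Os07g08140 and LOC_Os01g43590 reached the needed 3 libraries only with Balilla-4x, and LOC_Os01g04380 and LOC_Os09g35790 only with Balilla-2x. Standard errors are the log2 fold change divided by the square root of F, and 95% intervals use the same fit and are not adjusted. CPM values use TMM-scaled totals, and FPKM values are as deposited. Alternatives were library totals, RLE factors, DESeq2 1.42.0, 2 other filters, limma 3.58.1 on log2 of FPKM plus 1 or 0.1, a replicate block and each library left out. Values are relative to the RNA of a library, so RNA per cell is not measured, and the limits for 0 counts cover counting error only. Genes were named by class, adjusted p, highest FPKM and smallest change. Other tested genes are given by their fold changes and a few more by their values, chosen after these were seen.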

Additional observations from a re-analysis of the deposited data

How the results depend on the processing

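The count of changed heat shock genes, 13 as reported, was 10 to 13 in the 8 settings that kept all libraries. With a library left out it was 7 to 12 (7 without either Balilla-4x replicate 2 or Balilla-2x replicate 3, and 8 if Balilla-4x replicate 3 was dropped). The heat shock genes tested numbered 32 to 48 with all libraries and 37 or 38 with a library left out. Of all tested genes, 18.2% to 27.1% and 14.2% to 30.7% passed in that order. The count of genes changed at least 2-fold, 6 as reported, was 4 to 7 in 7 of the 8 settings that kept all libraries. It was 3 with limma on log2 of FPKM plus 1, where the added value shrinks the folds of scarce genes. With a library left out it was 3 to 6. The share of all tested genes was 8.77% to 12%, 7.56% and 8.49% to 13.7% in that order. The summed rows on chromosomes 1, 3 and 9 kept their direction and their side of the threshold throughout, with log2 fold changes of -1.19 to -0.95, 0.02 to 0.23 and 0.08 to 0.21 when a library was left out. None of the 13 changed genes reversed. Among the 24 genes that did not pass, 8 reversed at least once. LOC_Os03g63750 was at 0.045 with library totals, 0.0069 with at least 1 CPM in 3 libraries, and 0.045 and 0.046 with limma when 1 or 0.1 was added to FPKM. LOC_Os10g28340 was at 0.0016 and 0.0039 in the last 2 settings. With a library left out, log2 values ran from -0.054 to 0.037 for LOC_Os03g63750, -0.20 to 0.11 for LOC_Os10g28340, -0.36 to 0.070 for LOC_Os05g42120, -0.49 to 0.31 for LOC_Os09g30418, -0.017 to 0.26 for LOC_Os03g15960, -0.063 to 0.12 for LOC_Os04g48030, -0.010 to 0.57 for LOC_Os08g43334 and -0.14 to 0.33 for LOC_Os03g16040. The cause was not tested. No label says whether equal replicate numbers mark a shared plant or day. Across genes, the deviations of Balilla-4x and Balilla-2x libraries with the same number had correlations of 0.0179, -0.00595 and -0.0701. Libraries with different numbers had correlations of -0.087 to 0.113. These values cannot show whether libraries of equal number were handled together. With the replicate number as a block, 10 heat shock genes changed, 4 higher and 6 lower, beside 22% of all tested genes. Under the block, 4 of the 37 tested heat shock genes changed at least 2-fold, beside 10.6% of all tested genes. The adjusted p was then 0.0509 for LOC_Os06g50300, 0.0670 for LOC_Os07g08140 and 0.0709 for LOC_Os01g43590. The summed rows under the block were at log2 -1.07, 0.12 and 0.13. Summed rows were not run with FPKM. Scarce genes such as HSP101, with 2 to 26 counts in a library, are limited by depth.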

Other observations

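Several scarce heat shock genes varied widely within a line. They were picked after their values had been seen and are given as values only. The HSP90 gene LOC_Os09g30418 had 85, 27 and 106 counts in Balilla-4x and 122, 54 and 63 counts in Balilla-2x. The small heat shock protein LOC_Os01g04380 had 22, 8 and 2 counts in Balilla-4x and 39, 27 and 18 counts in Balilla-2x. The HSP70 gene LOC_Os03g16920 was read 13 times in Balilla-4x replicate 2 and 0 times in the other Balilla-4x libraries, against 1, 6 and 4 times in Balilla-2x. The heat shock factor LOC_Os06g36930 was read 14, 0 and 3 times in Balilla-4x and 1, 5 and 4 times in Balilla-2x. The highest Balilla-4x library was replicate 1 for LOC_Os01g04380 and LOC_Os06g36930, replicate 2 for LOC_Os03g16920 and replicate 3 for LOC_Os09g30418. The highest Balilla-2x library was replicate 1 for LOC_Os09g30418 and LOC_Os01g04380, and replicate 2 for LOC_Os03g16920 and LOC_Os06g36930. Whether these genes shared an effect of a library was not tested.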
